A study of Mus musculus with 8 samples.

Results

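Colon26 tumour cells sorted for high EGFP were compared with cells of the same line sorted for low EGFP, on 2 arrays of each, which are 4 of the 8 arrays of the series. The members are the arrays whose titles name colon26-PSF1P-EGFP as high or low, and arrays were paired by the replicate number in the title. Colon26 is a transplantable colon carcinoma line of the mouse. Here it was 1 line that stably carried EGFP under the promoter of mouse PSF1, the protein encoded by Gins1. The cells were injected under the skin of mice, the tumours were taken after 2 weeks, and their dissociated cells were separated by FACS, which sorts single cells by fluorescence. Low and high cells thus came from tumours of the same reporter line at the same site and time, and were separated by the EGFP gate. The low gate can also hold cells of the host without the reporter. The other 4 arrays hold the Lewis lung carcinoma line LLC with the same reporter, grown for 4 weeks and sorted in the same way, so line and time of growth cannot be told apart in any contrast between the lines. The question of the series was whether a strong PSF1 promoter goes with the expression pattern of embryonic stem cells. The arrays are labelled biological replicates, but no label says that each had its own tumour or mouse, and p-values therefore cover only the spread between these arrays, which may be technical.

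PSF1 is a subunit of the GINS complex, which joins Cdc45 and the MCM ring to form the helicase that opens DNA at replication forks. Genes of DNA synthesis are switched on around the start of S phase by E2F factors, and genes of mitosis rise later, in G2, under the MuvB complex with B-Myb and Foxm1. A tumour growing under the skin also holds cells of the host, among them macrophages, fibroblasts and vessel cells, which do not carry the reporter.

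Promoter sequences are shown for 7 genes, to make visible the short sequences whose shares in the gene lists are given below. They were chosen after their letters and values were seen. The spindle motor gene Kif11, the ubiquitin-conjugating enzyme gene Ube2c and the kinase gene Cdk1 stand for mitosis. The clamp loader gene Rfc3, the polymerase gene Pola1 and the GINS gene Gins3 stand for replication, where Gins3 itself did not pass the test, and the complement gene C1qc stands for the genes that fell. The motifs are not exclusive to a group: Cdk1 also holds E2F letters and Gins3 also holds TTTGAA. Each sequence is the 250 bases upstream of the RefSeq transcription start in the mouse build GRCm38.p6, read 5′ to 3′ on the gene's own strand. They are Kif11 at chr19:37376132-37376381 (plus strand), Ube2c at chr2:164769679-164769928 (plus strand) and Cdk1 at chr10:69352913-69353162 (minus strand) for the first group. The second group has Rfc3 at chr5:151651209-151651458 (minus strand), Pola1 at chrX:93632156-93632405 (minus strand) and Gins3 at chr8:95633309-95633558 (plus strand). The last is C1qc at chr4:136892915-136893164 (minus strand). Capitals mark 4 kinds of motif on either strand: TTTGAA alone, the CCAAT box, the E2F letters (TTTCGCGC, TTTGGCGC, TTTCCCGC or TTTGCCGC) and GAGGAAGT. E2F letters on opposite strands can share bases, and so can CCAAT boxes, as at positions −186 and −183 of Ube2c. No promoter sequence of Gins1, Aurkb, Fabp4 or Tyrobp is shown.
Kif11: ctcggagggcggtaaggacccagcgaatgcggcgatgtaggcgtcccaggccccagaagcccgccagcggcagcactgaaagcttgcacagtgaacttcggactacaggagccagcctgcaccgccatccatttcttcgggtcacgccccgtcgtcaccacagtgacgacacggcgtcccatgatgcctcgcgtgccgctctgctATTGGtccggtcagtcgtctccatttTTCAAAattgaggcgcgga
Ube2c: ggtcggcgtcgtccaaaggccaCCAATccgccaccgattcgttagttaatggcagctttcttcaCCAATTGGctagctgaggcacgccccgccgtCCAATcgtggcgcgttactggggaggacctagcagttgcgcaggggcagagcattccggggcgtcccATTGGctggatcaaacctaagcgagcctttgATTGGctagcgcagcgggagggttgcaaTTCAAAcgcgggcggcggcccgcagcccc
Cdk1: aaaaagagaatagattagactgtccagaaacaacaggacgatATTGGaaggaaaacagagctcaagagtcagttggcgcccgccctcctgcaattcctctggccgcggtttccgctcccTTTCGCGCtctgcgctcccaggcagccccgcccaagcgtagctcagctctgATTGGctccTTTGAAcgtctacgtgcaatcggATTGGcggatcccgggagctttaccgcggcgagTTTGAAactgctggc
Rfc3: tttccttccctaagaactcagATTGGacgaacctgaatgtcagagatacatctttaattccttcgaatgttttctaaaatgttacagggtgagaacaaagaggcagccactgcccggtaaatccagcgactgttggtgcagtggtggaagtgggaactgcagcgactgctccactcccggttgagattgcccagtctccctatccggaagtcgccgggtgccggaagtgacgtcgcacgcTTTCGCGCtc
Pola1: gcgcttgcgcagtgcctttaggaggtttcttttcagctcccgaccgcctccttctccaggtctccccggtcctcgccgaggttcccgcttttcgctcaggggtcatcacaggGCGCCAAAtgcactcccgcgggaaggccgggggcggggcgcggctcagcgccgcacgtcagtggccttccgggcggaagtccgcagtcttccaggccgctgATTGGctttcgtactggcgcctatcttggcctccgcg
Gins3: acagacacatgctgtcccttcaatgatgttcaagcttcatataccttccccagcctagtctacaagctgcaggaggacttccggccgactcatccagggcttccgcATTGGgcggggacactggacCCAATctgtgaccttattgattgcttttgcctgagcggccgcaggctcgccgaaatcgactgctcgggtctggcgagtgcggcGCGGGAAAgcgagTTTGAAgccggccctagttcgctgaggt
C1qc: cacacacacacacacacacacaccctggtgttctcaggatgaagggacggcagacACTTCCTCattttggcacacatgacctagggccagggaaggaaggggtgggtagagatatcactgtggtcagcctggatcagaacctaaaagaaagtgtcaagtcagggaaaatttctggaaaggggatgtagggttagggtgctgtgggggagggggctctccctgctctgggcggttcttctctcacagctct

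In these sequences Kif11 has TTTGAA on the reverse strand with its first base 19 bases before the start, and Ube2c has it at 29 bases before the start. Cdk1 has TTTGAA at positions −71 and −15, and the E2F letters TTTCGCGC at −131. Rfc3 holds TTTCGCGC at −10, Pola1 holds TTTGGCGC at −138 on the reverse strand, and Gins3 holds TTTCCCGC at −41 with TTTGAA at −28. C1qc has neither TTTGAA nor the E2F letters in this window, and has GAGGAAGT at −195 on the reverse strand. TTTGAA is the core of the cell cycle genes homology region, the E2F letters are a classical E2F sequence, CCAAT is bound by NF-Y, and GAGGAAGT is a sequence of the myeloid factor PU.1. A match here is a description of letters, not a binding site or a cause.

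The share of windows with each motif differed between the lists. A RefSeq window of 300 bases, from 250 before to 50 after the start, was at hand for 9807 of the 12177 genes tested, including 221 of the 266 that rose and 134 of the 193 that fell. TTTGAA was present in the windows of 41.2% of the risen genes, 20.1% of the fallen genes and 14.2% of all tested genes, against 20.2% of all 27025 genes with a window. Among the spindle and cytokinesis genes 21 of 25 held it (84.0%), among the mitotic kinases 7 of 13 (53.8%) and among the kinetochore genes 11 of 32 (34.4%). The origin and fork genes had it in 5 of 24 (20.8%) and the polymerase and clamp genes in 3 of 25 (12.0%). The E2F letters were in 11 of 24 origin and fork genes (45.8%) and 8 of 25 polymerase and clamp genes (32.0%). They were in 4 of 32 kinetochore genes (12.5%), 2 of 25 spindle genes (8.0%) and 1 of 13 mitotic kinases (7.69%). Their share was 4.63% among all tested genes, 14.0% among the risen and 2.6% among all windows. CCAAT was found in 66.1% of the risen, 38.1% of the fallen and 42.6% of the tested genes, and in 41.1% of all windows. It was in 69.2% of mitotic kinases, 68.0% of spindle genes and 62.5% of kinetochore genes. Origin and fork genes held it in 62.5% and polymerase and clamp genes in 52.0%. GAGGAAGT was found in 8.96% of the fallen (12 of 134), 2.26% of the risen and 3.5% of the tested genes, and in 3.69% of all windows. Of 12 macrophage markers with a window, 1 held it (8.33%). These shares are descriptions without a test, and the lists overlap in part with the genes that rose.

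The 4 arrays had median log2 signals between 4.87 and 5.02 over 45101 probe sets, and each gene is represented by the probe set with the highest mean. Values are log2 signals, so a difference of 1 stands for a doubling, and a log2 signal under 5 is treated as near background. The pair numbers stood further apart than the EGFP gates. The median absolute difference per gene was 0.57 between the low arrays and 0.41 between the high arrays, but 0.15 within pair 1 and 0.34 within pair 2. For 4 control transcripts with probe sets at each end, the 3′ end exceeded the 5′ end by a median of 2.60 and 2.41 on low and high arrays numbered 1, and by 0.23 and 0.35 on those numbered 2. The part of this gap in the differences between the pairs was not tested. The limma fit kept the pair as a block, and risen or fallen below means a limma adjusted p under 0.05 in that fit.

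The sort was first checked on the gene whose promoter drove EGFP. Gins1 (Entrez gene 69270) had log2 signals of 7.56 and 6.97 in low arrays 1 and 2 and 8.29 and 8.38 in high arrays 1 and 2. Both high arrays lay above both low arrays, and the rise was 1.07 (SE 0.21, limma adjusted p = 0.017). The other GINS subunits did not pass, with Gins2 at 7.92 and 8.41 in low and 8.52 and 9.12 in high cells, a change of 0.65 (limma adjusted p = 0.084). Gins3 changed by 0.53 and Gins4 by 0.45. The Gins1 call ended when either pair was left out (1.41 in pair 2 alone and 0.73 in pair 1 alone) and after quantile normalization (0.90).

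The label was then checked against cell type markers. Krt20, a keratin of differentiated intestinal epithelium, stood at 11.60 and 11.91 in low and 11.81 and 12.27 in high cells, and between 3.63 and 4.06 on the LLC arrays. Other defining markers of colon epithelium went against the label: of 15 on the array 4 passed the signal filter, and Cdx1, Vil1, Muc2 and the epithelial cadherin gene Cdh1 stayed under 5 on all 4 colon26 arrays. Epcam, an epithelial adhesion gene, was at 6.35 and 6.43 in low and 5.99 and 6.16 in high cells. By contrast several genes usually used as fibroblast markers were among the brightest in both gates. The mesenchymal transcription factor gene Prrx1 was at 12.92 and 12.42 in low and 12.82 and 12.38 in high cells, and S100a4 was at 13.47 and 13.39 in low and 13.44 and 13.50 in high cells. Their changes of −0.07 and 0.04 were within the spread between arrays.

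**Figure D1:**
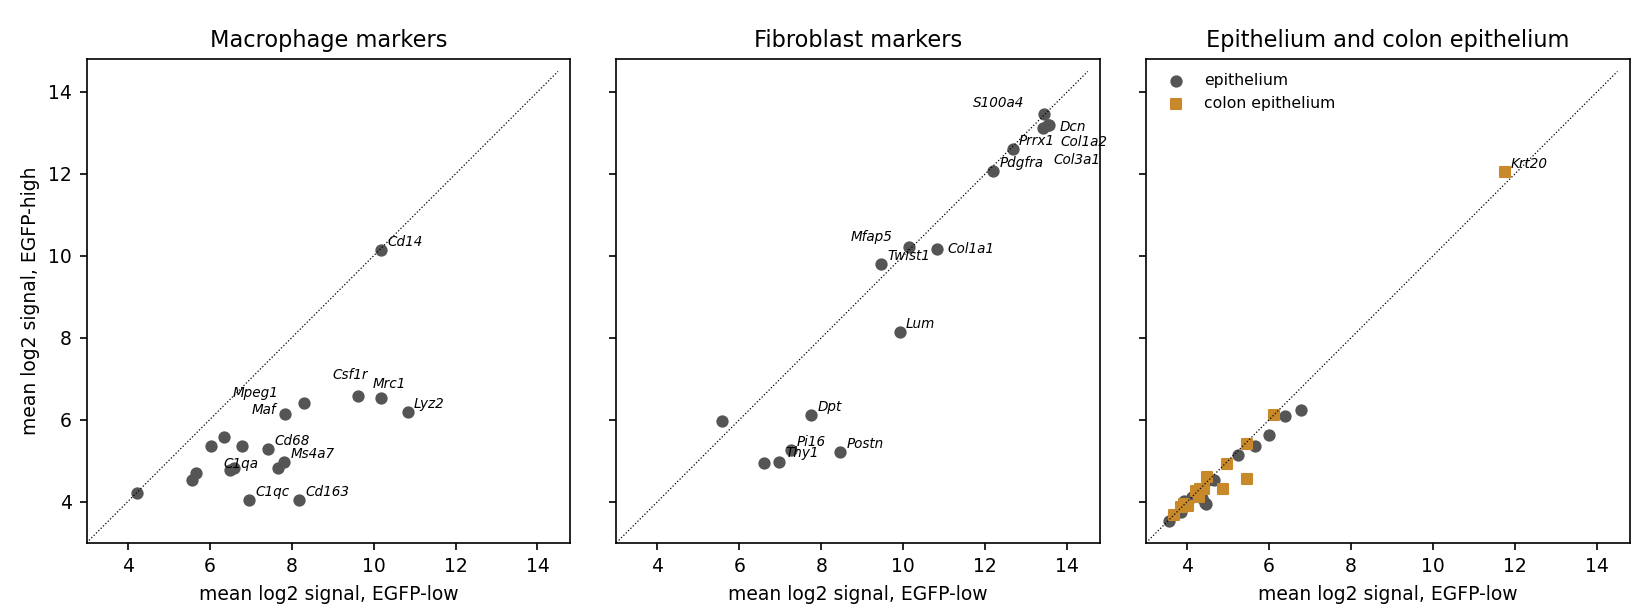
Mean log2 signal in EGFP-high (vertical) against EGFP-low (horizontal) colon26 cells for macrophage, fibroblast and epithelial markers on the array; each point is a gene, means are over 2 arrays, and the dotted line marks equal levels. Most macrophage markers lie below the line, Cd14 and the brightest fibroblast markers lie on or near it, and Krt20 is the 1 bright marker of the epithelial lists.

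In all, 266 of 12177 genes rose in EGFP-high colon26 cells (2.18%) and 193 fell (1.58%), against a median change over all genes of 0.08. The falls were the larger: 66 of the 193 exceeded 4-fold and 25 exceeded 8-fold, whereas 6 of the 266 rises exceeded 4-fold. The median rise was 1.22 and the median fall −1.61. Of the risen genes 207 had both high arrays above both low arrays, which 1457 genes (12.0%) had in all. Of the fallen genes 184 had both high arrays below both low arrays, which 1098 genes (9.02%) had. The pairs were unequal in opposite ways: pair 2 gave the larger rise in 253 of the 266 risen genes (medians 0.83 in pair 1 and 1.60 in pair 2), and pair 1 gave the larger fall in 149 of the 193 fallen genes (medians −1.82 and −1.28). In bulk samples fewer cells of a type and less RNA per cell cannot be told apart.

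These counts depended on the pairs and on the scaling. Limma called 116 rises and 70 falls in pair 2 without pair 1, and 0 rises and 59 falls in pair 1 without pair 2, fits in which the LLC arrays supply the spread. Quantile normalization gave 43 rises and 109 falls and median centring gave 539 and 232, so which direction had more calls followed the scaling. All 43 rises left by quantile normalization were among the 266, and they include Cdk1, Kif11, Ndc80, Top2a, Ube2c and Mki67, the gene of the proliferation antigen Ki-67. A set of 37 falls held under both scalings and in each pair alone, among them Lyz2, Fabp4, Fabp5, Csf1r, Mrc1, Cd163, Fcgr3, Col6a3 and S100a8. Without the pair as a block limma called 0 rises and 3 falls.

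**Figure D2:**
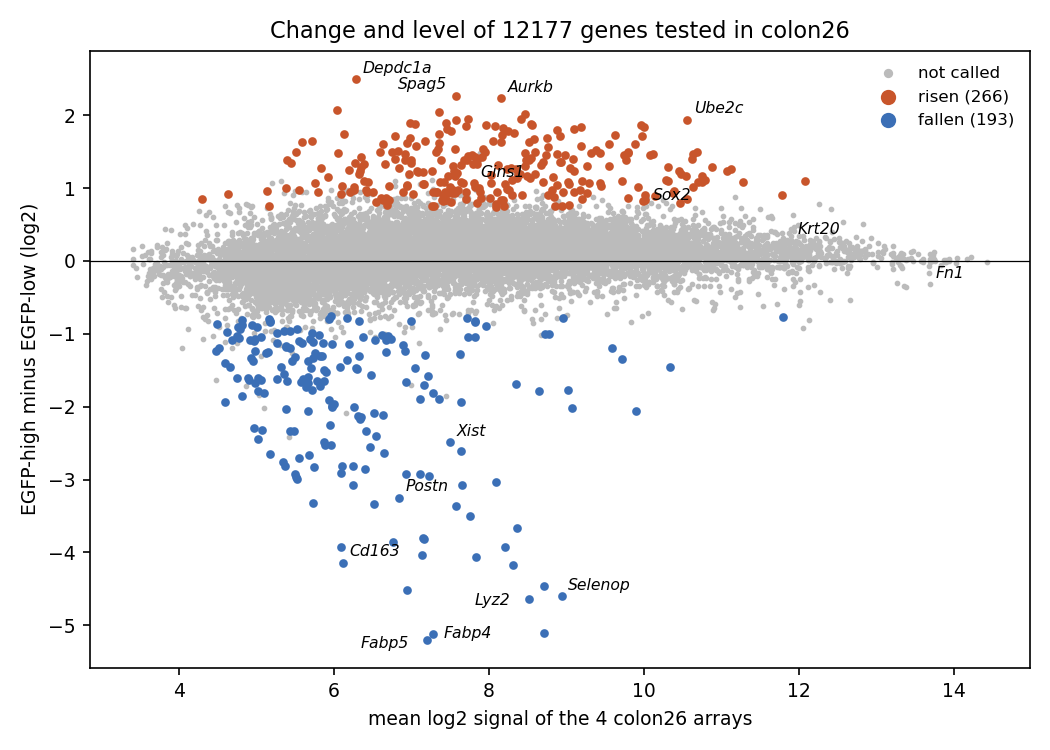
Change from EGFP-low to EGFP-high (log2, vertical) against the mean log2 signal of the 4 colon26 arrays (horizontal) for the 12177 genes tested; orange points rose, blue points fell and grey points were not called. Rises reach 2.50 and spread over a wide range of levels, while the falls reach −5.20 and thin out among bright genes.

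Genes of mitosis carried the largest rises. Of 18 mitotic kinases and passenger complex genes 16 rose (median 1.51, against 0.08 over all genes), of 35 kinetochore and centromere genes 28 rose (median 1.38), and of 27 spindle motor and cytokinesis genes 24 rose (median 1.71). None of these genes fell. The medians were 1.04, 0.88 and 1.19 in pair 1 and 2.18, 1.82 and 2.12 in pair 2. Quantile normalization left 5, 6 and 8 of these calls, with medians of 1.34, 1.24 and 1.54, and pair 1 alone left 0. In the same high arrays the summed signal of the macrophage list was lower, 1681 and 2457 against 9657 and 6135 in low cells on a linear scale, and 14 of its 18 tested markers fell. Its part in these rises was not tested.

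Among the kinases, Aurkb, the catalytic subunit of the chromosomal passenger complex, read 7.37 and 6.71 in low and 8.94 and 9.61 in high cells. That is a 4.70-fold rise (2.23, SE 0.29, limma adjusted p = 0.0024), with both high arrays above both low arrays. The Aurkb call ended after quantile normalization (2.07). The partners of Aurkb in the complex, Birc5, Cdca8 and Incenp, rose by 1.46, 1.52 and 1.23. Other probe sets gave 0.32 to 1.40 for Incenp and 1.45 to 1.52 for Cdca8. Cdk1, the kinase that drives entry into mitosis, read 9.04 and 9.05 in low and 10.16 and 10.91 in high cells, up by 1.49 (SE 0.21, limma adjusted p = 0.0036). The low arrays were nearly equal and both high arrays lay above them. Nek2, a centrosomal kinase, went from 7.70 and 7.02 to 9.07 and 9.20, a rise of 1.78. Plk1, the Polo kinase, was one of the pair not called: it read 6.48 and 7.81 in low and 6.94 and 10.31 in high cells, a change of 1.48 with limma adjusted p = 0.12. Its low array 2 lay above its high array 1, so the gates overlapped. Bora, an activator of Plk1, was the other, at 0.93.

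At the kinetochore, where spindle fibres attach, Ndc80 read 7.79 and 6.68 in low and 9.25 and 8.50 in high cells. It rose by 1.64 (SE 0.19, limma adjusted p = 0.001), by 1.46 in pair 1 and 1.82 in pair 2. Its partners in the Ndc80 complex Nuf2, Spc25 and Spc24 rose by 1.93, 1.60 and 1.23. Cenpe, a kinetochore motor, rose by 1.71, and Ska1, which holds the kinetochore on the microtubule tip, rose by 1.74. Another probe set of each gave 1.13 for Cenpe and 0.56 for Ska1. The 7 members that did not pass were Cenpm (0.92), Cenpo (0.44), Cenpt (0.42), Dsn1 (0.62), Mis12 (0.70), Mad1l1 (0.47) and Zwint (0.16). Zwint, a bridge from the kinetochore to the checkpoint, read 9.14 and 9.46 in low and 9.09 and 9.85 in high cells, with the gates overlapping. Cenpa, the centromeric histone, rose by 1.48 on its brightest probe set, while its other probe set gave −0.07.

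Of the spindle genes, Depdc1a had the largest rise of all tested genes. It read 6.21 and 3.85 in low and 7.57 and 7.49 in high cells, up by 2.50 (SE 0.40, limma adjusted p = 0.0063), and low array 2 was near background. Spag5, which builds the mitotic spindle, read 7.39 and 5.48 in low and 8.89 and 8.52 in high cells, up by 2.27 (SE 0.30, limma adjusted p = 0.0025). In both genes the high arrays were alike and the low arrays were not, which made pair 2 the larger. Kif11, the motor that pushes spindle poles apart and whose promoter is printed above, read 7.24 and 6.27 in low and 8.72 and 8.69 in high cells, up by 1.95 (SE 0.24, limma adjusted p = 0.0017). Prc1, which bundles the central spindle, rose by 1.84, and Kif20a, Kif23 and Racgap1, which work with it in cytokinesis, rose by 1.82, 1.36 and 1.57. The 3 members not called were Kif15 (−0.15, between 4.76 and 5.60 on the 4 arrays), Ckap5 (0.72) and Cit (0.33).

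**Figure D3:**
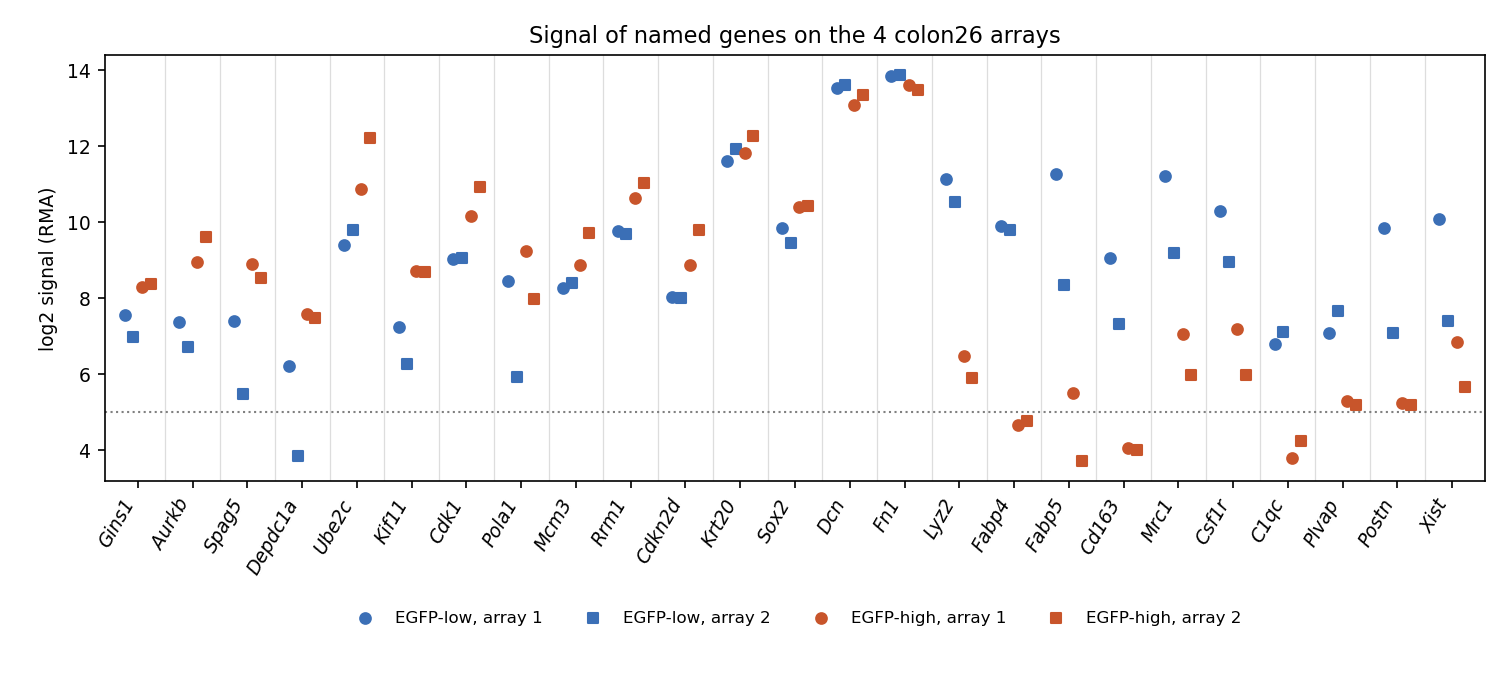
Log2 signal of 25 named genes on each of the 4 colon26 arrays; blue marks are EGFP-low and orange marks EGFP-high cells, circles are pair 1 and squares pair 2, and the dotted line is the background level of 5. Replication and mitosis genes at the left are higher in both EGFP-high arrays of their pair, Krt20, Dcn and Fn1 differ little, and the genes from Lyz2 to Xist are lower in both.

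The genes that shape chromosomes split by complex. Of 23 condensin, cohesin and topoisomerase genes 11 rose (median 0.80). Every condensin subunit named in the list rose save Ncaph2 (0.24): Smc2 by 1.29, Smc4 by 1.17, Ncapg by 1.63, Ncapd2 by 1.50, Ncaph by 1.30, Ncapg2 by 1.26 and Ncapd3 by 1.50. On other probe sets Ncapd2 gave 0.06, Smc2 gave 0.11 to 1.70 and Ncapg gave 1.95. Top2a, which untangles sister DNA, read 10.17 and 9.72 in low and 11.27 and 11.59 in high cells, up by 1.49 (SE 0.22, limma adjusted p = 0.0038), while another probe set gave 0.42. The core cohesin genes were not called, with Smc1a at 0.62, Smc3 at 0.58 and Rad21 at 0.80. The cohesin genes that rose act on cohesion at set times: Esco2, which acetylates cohesin in S phase (2.07), Cdca5, which encodes sororin (1.58), and Espl1, which encodes separase (1.58). TTTGAA was in the promoter windows of 8 of the 9 risen members with a window and of 1 of the 8 that had not risen. The split varied between lists: TTTGAA was in 11 of 25 risen and 0 of 7 other kinetochore genes, in 5 of 8 risen and 3 of 17 other cyclin list genes, in 4 of 8 risen and 4 of 7 other genes of replication-linked chromatin, and in 1 of 5 risen and 4 of 19 other origin and fork genes. Quantile normalization left 2 of the 11 calls, and pair 1 alone left 0.

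Mitotic regulators were among the rises. Of 32 cyclin, Cdc25 and anaphase promoting complex genes 11 rose (median 0.56). Ube2c, the ubiquitin-conjugating enzyme of the anaphase promoting complex, read 9.39 and 9.79 in low and 10.86 and 12.20 in high cells, up by 1.94 (SE 0.26, limma adjusted p = 0.0024). Both high arrays lay above both low arrays. The mitotic cyclins Ccnb2 and Ccna2 rose by 1.68 and 1.29, the activator Cdc20 by 1.40 and the phosphatase genes Cdc25b and Cdc25c by 1.46 and 1.03. None of the Anapc genes tested and Cdc16, Cdc23, Cdc26 and Cdc27, the core subunits, was called, and they lay between −0.03 and 0.58. The cyclins of G1 were not called either. Ccnd1 read 11.20 and 11.13 in low and 11.58 and 11.69 in high cells (0.47, limma adjusted p = 0.22), Ccnd2 changed by −0.51, Ccnd3 by 0.19, and Ccne1 by 0.40. Ccne2 narrowly missed the threshold at 1.11 (limma adjusted p = 0.053), a larger change than that of Cdc25c. Quantile normalization left 1 of the 11 calls, and pair 1 alone left 0.

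A smaller share of replication genes passed. Of 32 origin and fork genes 8 rose (median 0.66; 0.43 in pair 1 and 0.89 in pair 2), all 32 with a positive change, and 22 had both high arrays above both low arrays. The 8 were Gins1, Mcm8 (1.42), Mcm10 (1.08), Dbf4 (1.40), Clspn (1.06, with the opposite sign on another probe set), Gmnn (1.07), Mcm3 (0.97) and Mtbp (0.76). Dbf4, the activating subunit of the origin-firing kinase, read 9.18 and 7.59 in low and 10.15 and 9.42 in high cells. Mcm3, a subunit of the helicase ring, read 8.26 and 8.40 in low and 8.86 and 9.72 in high cells. For both genes each high array lay above its own low array, but the Dbf4 gates nearly met. The other ring subunits Mcm2, Mcm4, Mcm5, Mcm6 and Mcm7 lay between 0.55 and 0.87 and did not pass, with limma adjusted p from 0.064 to 0.19. After median centring 18 of the 32 passed, after quantile normalization 1 did, and in pair 1 alone 0 did.

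At the polymerases and the sliding clamp 12 of 30 genes rose (median 0.69), but after quantile normalization and in pair 1 alone 0 of them passed. Pola1, the catalytic subunit of polymerase alpha, read 8.46 and 5.93 in low and 9.25 and 7.97 in high cells, up by 1.42 (SE 0.26, limma adjusted p = 0.013). High array 2 lay below low array 1, so the gates overlapped and the call rests on the pairs. Pole, Pola2, Pold2 and Prim1 rose by 0.98, 0.84, 0.84 and 1.04. The clamp loader genes Rfc3, Rfc4 and Rfc5 rose by 0.90, 1.20 and 1.11, and those of the alternative loaders Dscc1 and Atad5 by 1.48 and 1.38. Pcna, the clamp itself, was already bright, at 12.78 and 12.35 in low and 13.09 and 13.07 in high cells, and its change of 0.51 was not called. Fen1, which trims Okazaki fragments, stayed at −0.08.

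Genes of nucleotide supply, repair and chromatin rose in part. Of 22 nucleotide synthesis genes 5 rose (median 0.43): thymidine kinase Tk1 (1.33), the ribonucleotide reductase genes Rrm1 and Rrm2 (1.11 each), deoxycytidine kinase Dck (1.26) and the folate enzyme Mthfd2 (0.90). Rrm1 read 9.76 and 9.69 in low and 10.64 and 11.03 in high cells. Purine synthesis genes such as Paics (0.04) and Gart (0.29) were not called. Of 30 repair and checkpoint genes 14 rose (median 0.72), among them Eme1 (1.61), Blm (1.31), Brca1 (1.28), Fancd2 (1.20) and the checkpoint kinase gene Chek1 (1.22). Other Chek1 probe sets gave 0.17 and 1.08. Atm, the kinase of the double-strand break response, was not called at 0.67. Of 18 genes of replication-linked chromatin 11 rose (median 0.94), including Hmgb2 (1.26), the histone chaperone gene Asf1b (1.27), the maintenance methyltransferase gene Dnmt1 (0.93), its partner Uhrf1 (1.08) and the Polycomb methyltransferase gene Ezh2 (1.08). The other Polycomb subunits Suz12 (0.67) and Eed (0.55) were not called. Quantile normalization left 0 nucleotide, 4 repair and 1 chromatin call, and pair 1 alone left 0 in each list.

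Among 19 E2F, Rb and MuvB regulators 6 rose (median 0.47), of which 0 passed after quantile normalization and 0 in pair 1 alone. The MuvB genes Lin9 and Lin54 rose by 1.38 and 1.19, Foxm1 by 1.01 and the Rb relative Rbl1 by 1.24. The repressive E2F genes E2f7 and E2f8 rose by 1.53 and 1.10. Other probe sets gave 0.62 for Lin9, 0.34 for Lin54 and 0.55 for E2f8, but 1.32 for Rbl1 and 0.91 to 1.30 for Foxm1. Foxm1 read 7.10 and 6.88 in low and 7.92 and 8.08 in high cells (SE 0.19, limma adjusted p = 0.017), with no overlap. The activating E2F genes E2f1, E2f2 and E2f3 lay at 0.56, 0.05 and 0.50 and were not called. Of 15 CDK inhibitor and growth arrest genes 2 rose and none fell. Cdkn2d, which encodes the INK4d protein, read 8.02 and 8.01 in low and 8.87 and 9.80 in high cells, up by 1.32 (SE 0.23, limma adjusted p = 0.0093). Cdkn2c, which encodes the INK4c protein, read 9.72 and 9.67 in low and 10.45 and 10.73 in high cells, a rise of 0.89. In LLC it read 11.10 and 12.35 in low and 10.72 and 11.45 in high cells, and the colon26 change was higher by 1.53 (SE 0.28, limma adjusted p = 0.031). Both inhibitor calls ended after quantile normalization. Cdkn1a and Cdkn1b, which encode the Cip and Kip inhibitors, were not called at 0.10 and 0.54.

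Growth genes outside the cycle were not called, where 2.18% of all genes rose and 1.58% fell. Counts of 0 or 1 in lists this short are near that share and say nothing about their members. Limma called 0 of 30 ribosome biogenesis genes (median 0.30), 0 of 23 ribosomal protein genes (0.09), 0 of 27 proteasome genes (0.22), 0 of 28 respiratory chain genes (0.16) and 0 of 23 cholesterol and fatty acid synthesis genes (0.44). After median centring 4 of the cholesterol genes passed and none of the others did. In the nuclear pore and transport list 5 of 25 rose (median 0.54), with the importin gene Kpna2 at 1.10 and the pore genes Nup37, Nup107 and Nup160 at 1.03, 0.75 and 0.86, and 0 of them passed after quantile normalization or in pair 1 alone. Among stress and signal lists the glycolysis and hypoxia genes had 1 fall of 27, the vasodilator peptide gene Adm (−1.47). The heat shock list had 1 fall of 25, Hspa1a (−1.72), a close relative of Hspa1b whose probe set may read both. None of 28 interferon-stimulated, 11 antigen presentation, 19 immediate early and 6 Wnt target genes was called.

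**Figure D4:**
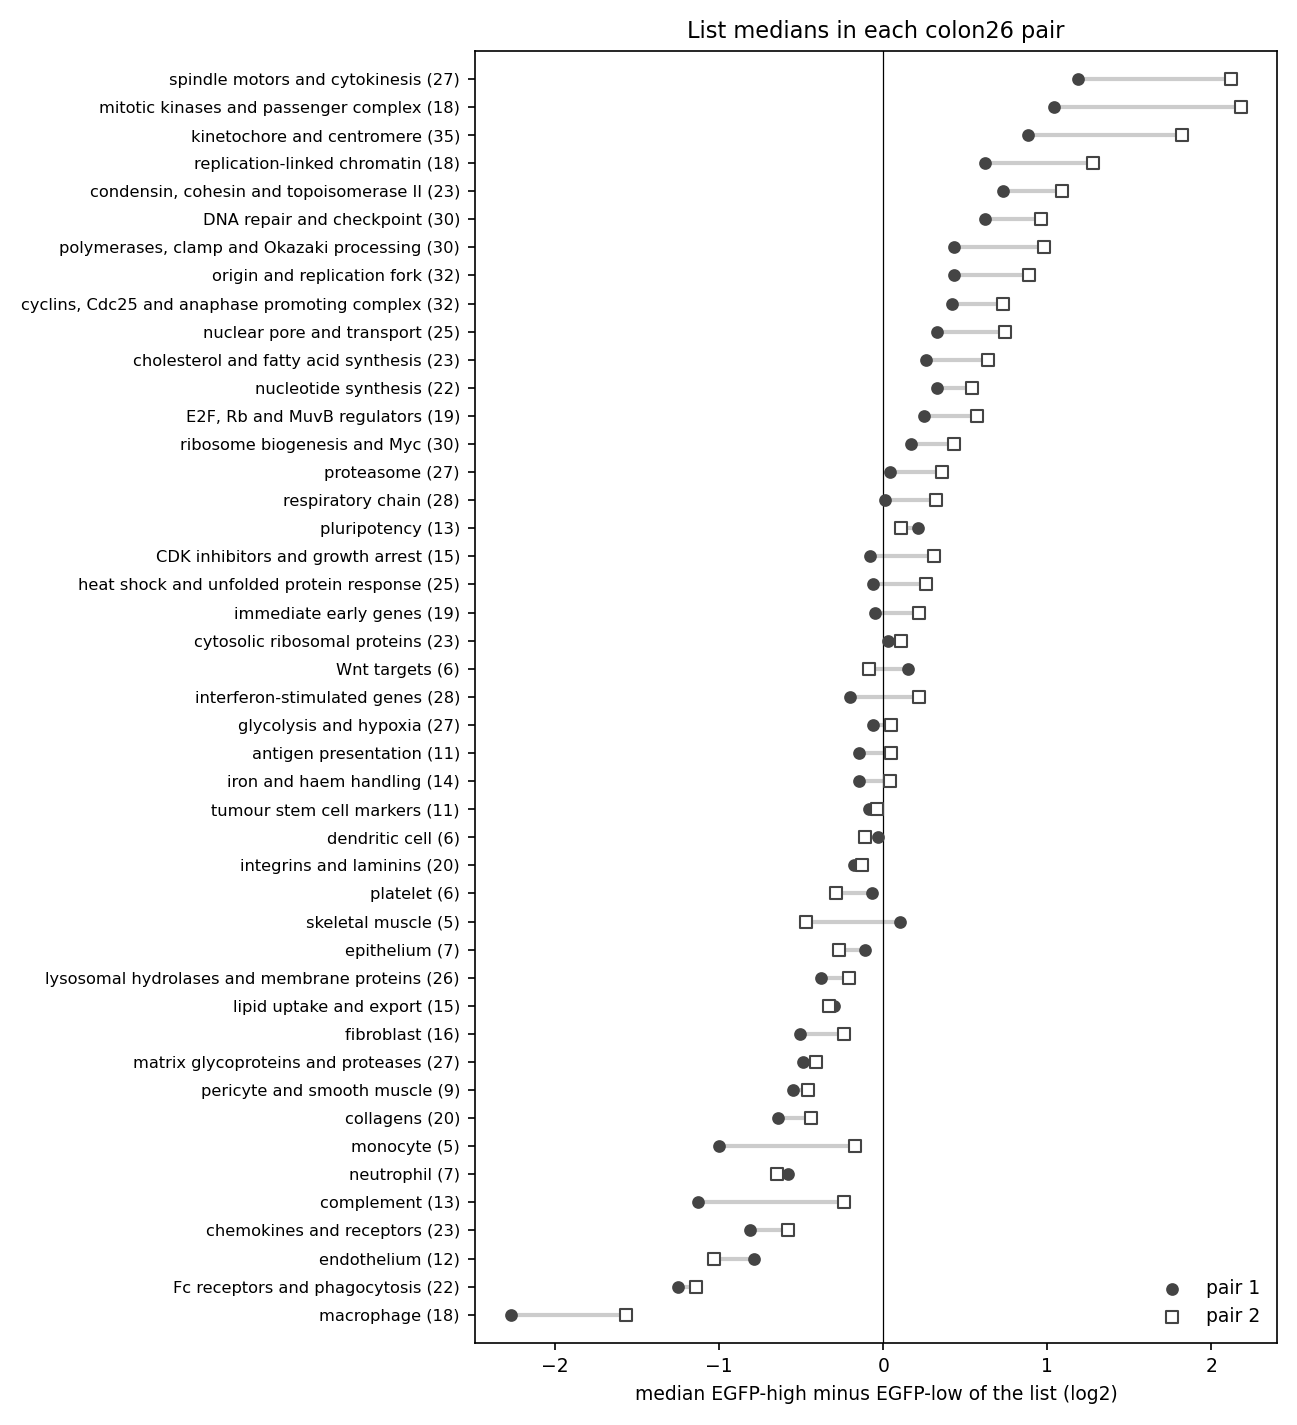
Median change (EGFP-high minus EGFP-low, log2) of each gene list with at least 5 tested genes, in pair 1 (filled circles) and pair 2 (open squares); the number of genes tested is in parentheses and the lists are ordered by the mean of both medians. Spindle genes head the plot at 1.19 and 2.12, and macrophage markers end it at −2.27 and −1.57.

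The question of stem cell genes was read from 2 lists. None of the 13 tested pluripotency genes was called, where 2.18% of all genes rose and 1.58% fell, so a count of 0 in a list this short is near the background and says nothing about its members. Sox2, a pluripotency and progenitor factor, read 9.84 and 9.46 in low and 10.40 and 10.41 in high cells. Both high arrays lay above both low arrays, and the change of 0.75 (SE 0.18) narrowly missed the threshold at limma adjusted p = 0.054. It passed with a signal filter of 7, after median centring and with the mean of probe sets. After quantile normalization, with no filter and with the colon26 arrays alone 0 genes of the list passed. Rif1, a replication timing factor in the same list, read 9.66 and 7.69 in low and 10.08 and 8.73 in high cells (0.73, limma adjusted p = 0.086). Its high array 2 lay below its low array 1, so the gates overlapped. Rif1 passed with a filter of 7, after median centring and with trend and robust moderation. On the LLC arrays Sox2 lay between 2.98 and 3.22. Pou5f1, which encodes Oct4, and Nanog stayed under 5 on all 4 colon26 arrays. Of 11 tumour stem cell markers 0 rose, again near the background, and 2 fell. The list had 0 falls after quantile normalization and 0 with trend and robust moderation. Thy1 read 7.88 and 6.06 in low and 4.96 and 5.01 in high cells (−1.99), and Cxcr4 read 6.96 and 5.03 in low and 4.18 and 4.20 in high cells (−1.81). Both also mark host cells. The macrophage and endothelial markers were lower in the same arrays, and the part of host cells in these 2 falls was not tested. The hyaluronan receptor gene Cd44 did not differ beyond its spread, at 12.14 and 11.81 in low and 11.90 and 11.77 in high cells.

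The falls were led by genes of macrophages. Of 18 tested macrophage markers 14 fell (median −1.84; −2.27 in pair 1 and −1.57 in pair 2), with 8 falls without pair 1 and 7 without pair 2. Csf1r, the receptor of the growth factor on which macrophages depend, read 10.28 and 8.94 in low and 7.18 and 5.98 in high cells, an 8.18-fold fall (−3.03, SE 0.18, limma adjusted p = 8.1e-06), and its other probe sets gave −1.94 and −0.40. Mrc1, the mannose receptor, read 11.20 and 9.18 in low and 7.07 and 5.98 in high cells (−3.66). Cd163, the scavenger receptor for haemoglobin, read 9.06 and 7.31 in low and 4.07 and 4.01 in high cells (−4.14). In all 3 both high arrays lay below both low arrays, and Cd163 ended under the background level. Maf (−1.70), Folr2 (−0.96) and Trem2 (−0.69) were not called. Cd14, the lipopolysaccharide co-receptor, read 9.64 and 10.74 in low and 9.53 and 10.77 in high cells, a change of −0.04 among markers that fell. Marco was under 5 on all 4 arrays.

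The 4 largest falls were in genes of lysozyme and fatty acid binding proteins. Lyz2, the lysozyme of myeloid cells, read 11.14 and 10.53 in low and 6.49 and 5.89 in high cells. The fall was 24.96-fold (−4.64, SE 0.19, limma adjusted p = 1.1e-06) and nearly the same in each pair. Lyz1 read 11.65 and 10.88 in low and 6.65 and 5.66 in high cells, but it is so close in sequence to Lyz2 that its probe set may read both. Of 15 lipid uptake and export genes 4 fell (median −0.25). Fabp5, a fatty acid binding protein of epidermis and macrophages, read 11.25 and 8.35 in low and 5.50 and 3.71 in high cells (−5.20, SE 0.25, limma adjusted p = 2.2e-06). Fabp4, that of adipocytes and macrophages, read 9.89 and 9.78 in low and 4.66 and 4.76 in high cells (−5.12). High arrays near background limit both falls. The cholesterol exporter gene Abca1 fell by 2.02 and lipoprotein lipase Lpl by 2.34. Apoe read 4.79 and 9.60 in low and 4.50 and 5.72 in high cells and was not called (−2.09, limma adjusted p = 0.1).

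Genes of engulfment and of the lysosome were divided. Of 22 Fc receptor and phagocytosis genes 11 fell (median −0.96). Fcgr3, a low-affinity receptor for antibodies, read 8.23 and 8.13 in low and 4.66 and 5.02 in high cells (−3.34, SE 0.20, limma adjusted p = 1.1e-05). Its signalling adaptor Fcer1g and another adaptor gene, Tyrobp, changed by −2.55 and −2.40. The apoptotic cell receptor genes Axl (0.28) and Mertk (0.03) were not called. Of 26 lysosomal genes 4 fell (median −0.27), and all 4 were cathepsins. Ctss, a protease of antigen-presenting cells, read 11.50 and 10.37 in low and 6.75 and 6.21 in high cells (−4.46), Ctsc changed by −4.51, Ctsh by −2.70 and Ctsk by −1.56. The broadly expressed Ctsb, Ctsd and Ctsl lay at −0.54, −0.11 and −0.01. The membrane genes Lamp1 and Lamp2 lay at −0.09 and −0.22. Selenop, a secreted selenium carrier, was 1 of 2 falls among 14 iron and haem genes, with Hp, and changed by −4.60, from 12.13 and 10.35 to 7.29 and 5.99. The macrophage list, with a median of −1.84, shares members such as Cd163, Mrc1, Msr1 and Stab1 with the Fc receptor list. Its part in these falls was not tested.

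Complement and chemokine genes fell in part. The complement list had 5 falls among 13 genes (median −0.79; −1.13 in pair 1 and −0.24 in pair 2). They were C1qa (−2.82), C1qb (−1.45), C1qc (−2.93), C3ar1 (−1.13) and Serping1, and 2 falls remained after quantile normalization. C1qc, a chain of the recognition protein C1q whose promoter is printed above, read 6.80 and 7.12 in low and 3.80 and 4.25 in high cells. Clu and C5ar1 were not called, at −0.20 and −0.04. The chemokine list had 10 falls among 23 genes (median −0.56), of which 6 remained after quantile normalization. Ccl6 read 10.97 and 9.84 in low and 6.35 and 6.09 in high cells (−4.18, SE 0.22, limma adjusted p = 4.5e-06), and the changes were −3.93 for Ccl8, −2.95 for Pf4, −2.63 for Cxcl2 and −2.66 for Cxcl12. Another Cxcl12 probe set gave −0.08, and another of Ccl6 gave −3.50. The neutrophil and monocyte attractants Cxcl1 and Ccl2 were bright and did not follow. Cxcl1 read 12.24 and 11.82 in low and 12.37 and 12.07 in high cells, and Ccl2 read 10.23 and 11.32 in low and 9.56 and 11.84 in high cells. Ccl6 and Ccl9, Ms4a6b and Ms4a6d, and Ctla2a and Ctla2b are close relatives whose probe sets may share signal.

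Markers of other host cells fell in smaller numbers. Of 12 tested endothelial markers 5 fell and all 12 were negative (median −1.02). Plvap, a protein of the openings in capillary walls, read 7.08 and 7.67 in low and 5.31 and 5.18 in high cells (−2.13, SE 0.21, limma adjusted p = 0.00038). Emcn fell by 1.94 and the vascular cadherin gene Cdh5 by 1.30. Of 9 pericyte and smooth muscle markers 3 fell (Kcnj8, Mcam and Abcc9), of 7 neutrophil markers 3 (S100a8, Mmp8 and S100a9), of 5 monocyte markers F13a1 (−4.03) and of 3 mast cell markers Cma1 (−0.96). After quantile normalization 3 endothelial, 1 pericyte and 2 neutrophil falls remained. S100a8 read 10.85 and 10.99 in low and 8.67 and 9.05 in high cells (−2.06). Lyve1 fell among 4 lymphatic markers, Pf4 among 6 platelet markers, Car4 among 4 colon epithelium markers and the leukocyte integrin gene Itgb2 among 20 integrin and laminin genes. None of the tested markers of dendritic cells (6), T cells (4), B cells (3), NK cells (1), Schwann cells (4), adipocytes (2), skeletal muscle (5), keratinocytes (3), erythroid cells (2) and general epithelium (7) was called. With 2.18% of all genes risen and 1.58% fallen, no call in lists this short is near the background. Xist, the RNA that silences an X chromosome, read 10.09 and 7.39 in low and 6.85 and 5.66 in high cells (−2.49), and −1.56 on another probe set. The Y-linked genes Eif2s3y, Kdm5d and Uty stayed at or under 4.06.

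Matrix genes separated into those that fell and those that stayed bright. Of 20 collagen genes 3 fell (median −0.61): Col5a2 read 11.34 and 8.39 in low and 5.86 and 5.74 in high cells (−4.06), Col6a3 fell by 3.07 and Col18a1 by 1.58. Of 27 matrix glycoprotein and protease genes 7 fell (median −0.47). After quantile normalization 2 of these falls and 2 of the collagen falls remained. Postn, the matricellular protein periostin, read 9.83 and 7.09 in low and 5.24 and 5.18 in high cells (−3.25, SE 0.54, limma adjusted p = 0.0077), and the proteoglycan gene Bgn and the crosslinking enzyme gene Lox changed by −2.93 and −2.48. Another Lox probe set gave −0.71, and those of Bgn gave −2.98 and −1.88. Fibronectin Fn1 read 13.83 and 13.87 in low and 13.59 and 13.46 in high cells, and the proteoglycan gene Dcn read 13.51 and 13.60 in low and 13.07 and 13.33 in high cells. Neither was called (−0.32 and −0.36), nor were Col1a2 (−0.35) and Tnc (−0.16). For Fn1 and Dcn both high arrays still lay below both low arrays. Changes were negative in 25 of the 27 matrix genes and 18 of the 20 collagen genes. In 16 and 13 genes of these lists both high arrays lay below both low arrays, against 9.02% of all genes. In the fibroblast list 6 of 16 fell (Pi16, Postn, Thy1, Fap, Dpt and Lum; median −0.35), and its summed linear signal was 69804 and 57284 in low and 53320 and 53480 in high cells. After quantile normalization the fibroblast list had 1 fall.

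Where colon26 differed from LLC was tested as the colon26 change minus the LLC change in the same fit. The colon26 change was more positive in 120 genes (0.985%) and more negative in 52 (0.427%), where LLC itself had 607 rises (4.98%) and 735 falls (6.04%). The more positive side included matrix and mesenchymal genes that were not called in colon26. Fn1 changed by −0.32 in colon26 against 11.68 and 12.39 in low and 9.21 and 9.22 in high LLC cells, a difference of 2.49 (SE 0.29, limma adjusted p = 0.0046). Dcn differed by 3.03, Col1a2 by 3.06 and Tnc by 2.26. The semaphorin gene Sema3a read 11.30 and 10.62 in low and 11.30 and 10.71 in high colon26 cells and differed by 2.88, and the aryl hydrocarbon receptor gene Ahr and the collagen receptor gene Ddr1 differed by 2.86 and 2.85. Aspn, Mmp12 and Bmf, with differences of 4.20, 3.50 and 3.16, were at most 5.21 on the colon26 arrays, near the level where a fall cannot be measured. Esm1, an endothelial secreted proteoglycan, read 9.14 and 8.09 in low and 10.01 and 9.81 in high colon26 cells (1.30). On the LLC arrays it was at most 3.72, below background, so its call in the test between the lines measures no LLC change.

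The more negative side included macrophage genes. Fabp5 fell by 5.20 in colon26, while in LLC it read 9.36 and 8.85 in low and 10.17 and 9.49 in high cells. The difference was −5.93 (SE 0.35, limma adjusted p = 9.2e-05). Cd163 differed by −3.32, but it read 4.17 and 4.32 in low LLC cells, near background, where a fall cannot be measured. Lyz2 fell in both lines and differed by −2.48, from levels of 9.16 and 9.11 in low LLC cells. For 4 cycle genes the difference between the lines did not pass. It was −0.08 for Aurkb, 0.27 for Depdc1a, −0.53 for Cdk1 and −0.22 for Kif11 (limma adjusted p = 0.95, 0.86, 0.45 and 0.8), which does not show that they respond alike. Both sets of calls depended on the pairs and the scaling: without either pair 0 genes passed in each direction, and after quantile normalization 2 did in each.

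**Figure D5:**
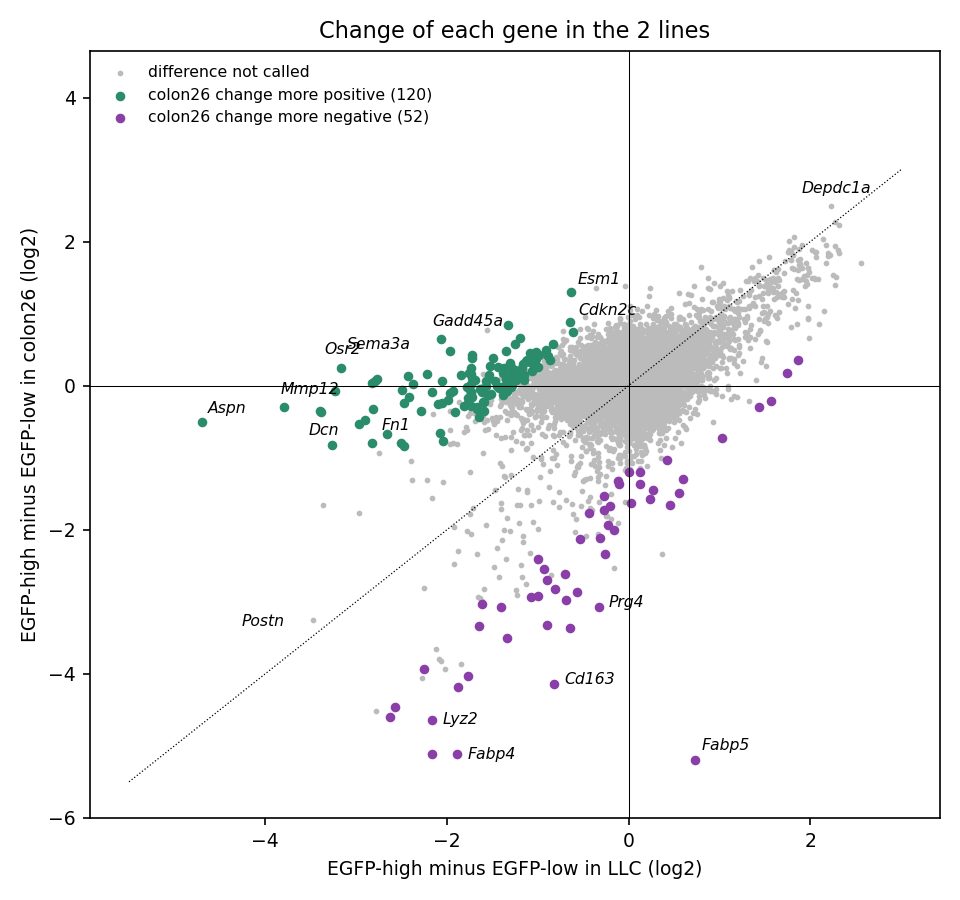
Change from EGFP-low to EGFP-high in colon26 (vertical) against LLC (horizontal), log2, for the 12177 genes tested; green and purple points passed the test of the difference between the lines, in which colon26 was more positive (120) or more negative (52), and the dotted line marks equal changes. Fabp5 stands alone at the lower right, and Dcn and Fn1 sit near 0 on the colon26 axis.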

How the data were processed

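Total RNA of the sorted cells was extracted with Trizol and 6 ug of it went as biotinylated cRNA onto Affymetrix arrays of 1 colour, per the labels. For 45101 probe sets the authors deposited RMA values on a log2 scale, per the submitters' processing notes. The RMA options were not given in the sources used here. With 2 arrays in each group, their number limits the precision. Descriptions of the 4 colon26 samples name LLC, but titles, source and cell line say colon26 and were followed.

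Probe sets were named by the platform's annotation (34945 with 1 gene symbol, 932 with several, 9160 with none, 64 controls), and 34741 matched RefSeq genes of GRCm38.p6. Only those with 1 symbol were used, and the brightest probe set stood for a gene. The 12177 of 18193 genes above a log2 value of 5 on at least 2 of 8 arrays were tested with limma 3.58.1 in R 4.3.3, with all 8 arrays, a block for each line and replicate number, an EGFP effect for each line and Benjamini-Hochberg adjustment at 0.05 (2 residual degrees of freedom, prior 8.25). The replicate number was used as a pairing because deviations from the group means correlated at 0.84 in colon26 and 0.89 in LLC within a number. The script was tested on simulated data. Fold values are 2 to the power of the log2 change.

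The 56 lists (36 of programmes, 20 of cell types) and the members were chosen with earlier results of these data known, so the lists are described by counts and medians without a test of their own. Genes named are Gins1, the 25 largest rises and falls with no overlap of the gates, 10 differences between the lines in each direction, and for each list at most 6 members that passed, or the 2 brightest if none did. Other genes were named after their values were seen. Motifs were searched on both strands of RefSeq promoter windows. Alternatives were no block, no filter, a filter of 7, quantile normalization, median centring, trend and robust moderation, the mean of or every probe set, colon26 arrays alone, and each pair left out. Figures were drawn with matplotlib 3.10.9.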

Additional observations from a re-analysis of the deposited data

Results flagged for a closer look

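By limma's test of the colon26 change minus the LLC change, 120 genes were more positive and 52 more negative in colon26. The 10 largest differences in each direction follow, on the log2 scale. More negative in colon26 were Fabp5 (−5.93), Cd163 (−3.32), Fabp4 (−3.23), Lyz1 (−2.94), Prg4 (−2.74), Srgn (−2.71), Lyz2 (−2.48), Epas1 (−2.42), Ccl6 (−2.30) and Ms4a7 (−2.29). Fabp5 is the 1 of these 10 with a positive change in LLC (0.73). More positive in colon26 were Aspn (4.20), Mmp12 (3.50), Osr2 (3.40), Bmf (3.16), Col1a2 (3.06), Dcn (3.03), Sema3a (2.88), Ahr (2.86), Ddr1 (2.85) and Gadd45a (2.72). Gadd45a, a stress response gene, read 5.02 and 4.95 in low and 5.56 and 5.71 in high colon26 cells, against 9.48 and 10.82 in low and 7.71 and 8.45 in high LLC cells. Groups of 2 arrays are too small to be searched for a sample that stands apart.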

How the results depend on the processing

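Each pair carried much of the calls, and 2 pairs allow no more than that check. With 1 pair left out, rises numbered 0 to 116 (266 with both), falls 59 to 70 (193), differences more positive in colon26 0 to 0 (120) and more negative 0 to 0 (52). Without the replicate block the counts were 0, 3, 0 and 0, with 2005 genes at an unadjusted p under 0.05 in the blocked fit. Quantile normalization gave 43, 109, 2 and 2, and median centring 539 rises and differences of 284 and 90. With no signal filter 164 rises and differences of 34 and 22 were left, where more genes were tested (18193). A signal filter of 7 gave 211 more positive differences, and a mean-variance trend with robust moderation gave 246. The other alternatives kept the counts they gave within 1.5 times (colon26 arrays alone give no difference between the lines), and no named gene that was called changed sign. The cause of these changes was not tested. Of 203 called genes with further probe sets, 189 had the same sign in all of them and 14 had an opposite sign in some, among them Cenpa, Tmpo and Clspn. A same sign was not always a like size. Other probe sets gave 0.06 for Ncapd2 (1.50) and −0.08 for Cxcl12 (−2.66), but 1.95 for Ncapg (1.63). For 96 of the 193 falls the high arrays averaged under 5, where background limits the size of a fall.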

Other observations

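Several called genes lay outside the lists described above and were picked after their values were seen. Genes of centriole duplication were among the rises. Stil read 7.30 and 5.78 in low and 8.58 and 7.74 in high cells (1.62, limma adjusted p = 0.002), Sass6 rose by 1.46, Cep192 by 1.07 and Ccp110 by 0.97, beside Plk4, the kinase that starts duplication, which read 9.74 and 7.79 in low and 10.81 and 10.17 in high cells (1.73). Cth, which makes cysteine, rose by 1.35 and Psat1, which makes serine, by 1.02. Psat1 read 10.25 and 9.99 in low and 11.04 and 11.26 in high cells.

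Some histone genes went against the other genes of packaging. H1f2 read 9.82 and 10.54 in low and 8.55 and 9.41 in high cells (−1.20, limma adjusted p = 0.004), and H2ac19 read 7.44 and 9.10 in low and 6.26 and 7.72 in high cells (−1.28). H2bc22 fell by 0.84. In LLC, H1f2 read 10.17 and 10.96 in low and 10.19 and 10.95 in high cells, and the colon26 change minus the LLC change was −1.21 (limma adjusted p = 0.048). Histone genes resemble each other closely, and their probe sets may share signal. Another H1f2 probe set gave −0.87.

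A few further falls were picked in the same way. Il6, a cytokine, read 10.86 and 11.25 in low and 9.66 and 9.55 in high cells (−1.45, limma adjusted p = 0.0029), Il1b fell by 1.81 and the acute phase gene Saa3 by 1.47. Macrophage markers were lower in the same high arrays (14 of 18 fell), and their part was not tested.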
